A study of Rattus norvegicus with 28 samples.

Results

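The genes described here are the interleukins, the tumour necrosis factor (TNF) superfamily, their receptors and the genes named as induced by TNF. A gene was a member if a probe carried its symbol alone and that symbol began with Il and a digit, Tnfsf, Tnfrsf or Tnfaip, or was Tnf. Il6, Il6r, Il6st and Il11ra1 were left out by this rule. It gave 92 probes for 90 genes, out of 14557 genes with such a probe in the series, and the brightest probe stood for a gene with several. The rule used names only and no measured value, but these members and the gene lists below were chosen with earlier results of these data known. The left ventricle of 28 male rats was profiled, with 1 array per sample. Treated dTGR (12 arrays) are double transgenic rats on a Sprague Dawley background that carry the human angiotensinogen and human renin genes, lines SD-Tg(hAGT)L1623xTg(hREN)L10J, and received 3 mg/kg BAY 41-8543 daily, a stimulator of soluble guanylate cyclase. Vehicle dTGR (8 arrays) carry the same transgenes and received the solvent. Sprague Dawley rats (8 arrays) carry neither transgene and are labelled as untreated. Group assignment took place at an age of 3.5 weeks, daily gavage began at 4 weeks and tissue was collected at 7 weeks. The design text gives 4 weeks of treatment, which those ages do not allow. The labels describe the dTGR phenotype as heart failure with preserved ejection fraction induced by hypertension. The sources used here do not give the promoters of the transgenes, and whether any probe of these rat arrays reads the human genes was not tested.

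Interleukins and TNF family ligands bind receptors on neighbouring or distant cells, and those receptors pass the signal through adaptor proteins and kinases to transcription factors such as NF-kappaB, AP-1 and the STAT proteins. Decoy receptors and soluble binding proteins take up a ligand without passing on a signal, and receptor antagonists occupy a receptor without activating it. In the heart these genes are known from cardiomyocytes, fibroblasts, endothelium and leukocytes, and they are studied in pressure overload, infarction and repair.

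The promoters of 4 of the members that were called higher in vehicle dTGR than in Sprague Dawley rats are printed below. They are RefSeq sequences of the rat build GRCr8, 5′ to 3′ on the strand of the gene, from 250 bases before to 50 bases after the gene start. Tnfrsf12a lies on the minus strand at chr10:13213599-13213898. Tnfrsf1a lies on the plus strand at chr4:159836869-159837168, Il4r on the plus strand at chr1:189545525-189545824 and Il18 on the plus strand at chr8:59801822-59802121. Capitals mark a match to the AP-1 motif TGANTCA, the STAT motif TTCNNNGAA or the NF-kappaB consensus, each searched on both strands.
Tnfrsf12a: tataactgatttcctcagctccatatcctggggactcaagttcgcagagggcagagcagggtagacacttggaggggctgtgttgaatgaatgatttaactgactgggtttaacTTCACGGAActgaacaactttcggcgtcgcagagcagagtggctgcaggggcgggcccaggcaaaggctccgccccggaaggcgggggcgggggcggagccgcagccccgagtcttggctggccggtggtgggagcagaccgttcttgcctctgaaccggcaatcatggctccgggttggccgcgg
Tnfrsf1a: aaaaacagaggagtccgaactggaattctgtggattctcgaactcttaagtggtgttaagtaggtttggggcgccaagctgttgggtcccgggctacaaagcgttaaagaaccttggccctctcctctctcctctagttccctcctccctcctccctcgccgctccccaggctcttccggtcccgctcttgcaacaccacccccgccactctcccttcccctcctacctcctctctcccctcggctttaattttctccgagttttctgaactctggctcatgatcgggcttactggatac
Il4r: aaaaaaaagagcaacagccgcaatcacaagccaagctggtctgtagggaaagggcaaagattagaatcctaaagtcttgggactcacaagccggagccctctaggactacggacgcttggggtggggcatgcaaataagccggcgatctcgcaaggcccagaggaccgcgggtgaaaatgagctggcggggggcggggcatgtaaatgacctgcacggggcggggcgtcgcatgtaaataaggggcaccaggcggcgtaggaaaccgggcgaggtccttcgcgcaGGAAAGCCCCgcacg
Il18: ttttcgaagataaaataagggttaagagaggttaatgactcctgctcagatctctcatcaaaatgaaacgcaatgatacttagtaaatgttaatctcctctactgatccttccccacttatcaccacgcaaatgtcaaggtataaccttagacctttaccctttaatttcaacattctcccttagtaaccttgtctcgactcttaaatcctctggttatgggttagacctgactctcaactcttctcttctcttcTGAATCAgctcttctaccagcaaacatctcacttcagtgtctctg
The Tnfrsf12a promoter holds a STAT match that starts at position -136 from the gene start, the Il4r promoter an NF-kappaB match at 35 and the Il18 promoter an AP-1 match at 5. The Tnfrsf1a window holds no match to any of the 3 motifs. Il17rd, Tnfrsf21, Tnfrsf26 and Tnfaip1 were called higher too, and their promoters, which are not printed, hold no match either. RefSeq promoters were matched for 69 of the 90 members. Of these, 8 (11.6%) held the AP-1 motif, 8 (11.6%) the STAT motif and 7 (10.1%) the NF-kappaB consensus. Over all 27457 promoters of the same length the shares were 7.33%, 8.68% and 4.16%. Of the 15 members that differed between vehicle dTGR and Sprague Dawley rats, 11 had a promoter in the table, and each motif occurred in 1 of them. These matches describe the letters of the window and show no binding.

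A gene is called dim here if its mean log2 intensity lay under the 30th percentile of all probes, a level of 5.65. By this measure 23 of the 90 members were dim (25.6%), against 21% of all genes. Dim genes made up 15 of the 43 ligands, 7 of the 35 receptors and 1 of the 2 receptor antagonists. None of the 3 decoy receptors, 5 TNF-induced genes and 2 soluble binding proteins was dim. The class called TNF-induced goes by the symbol alone and includes Tnfaip8l1 and Tnfaip8l2, which are named for likeness to Tnfaip8. Just under the level lay Il17f (5.54), Il17a (5.55) and Il36rn (5.59), and just over it Il27 (5.66), Il9 (5.69) and Il31ra (5.71). The arrays carry no measure of background, and a probe's intensity depends on its sequence, so levels are compared between groups for the same gene and not between genes. Among the cytokines most often measured in inflamed tissue, Il4 averaged 4.68, Il1b 6.14, Il10 5.75 and Tnf 7.90 over all arrays. These are log2 levels and do not rank the genes.

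Across the series, deposited intensities were nearly alike in distribution between arrays, and the lowest correlation between 2 arrays was 0.954. The cardiomyocyte markers, 4 of 6 measured and none dim, had summed log2 levels of 17.8 to 18.1 in treated dTGR, 17.8 to 17.9 in vehicle dTGR and 17.9 to 18.0 in Sprague Dawley rats, so the defining genes of heart muscle were present on every array. Mesothelial markers (3 of 3 measured) were lower in both transgenic groups than in Sprague Dawley rats. Their summed log2 level had a median of 7.95 in treated dTGR, 7.41 in vehicle dTGR and 9.52 in Sprague Dawley rats, and the part of these cells in any result was not tested. Animal numbers in the labels run in a separate block for each group. Genotype therefore cannot be told apart from cohort or from gavage, and treatment cannot be told apart from the animal block.

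In vehicle dTGR hearts, 12 members were higher than in Sprague Dawley hearts, among them the receptors Tnfrsf12a, Il17ra and Il4r and the decoy receptors Tnfrsf11b and Il1r2, and 3 were lower. This comparison asks what the hypertensive transgenic heart differs in. Those called higher were 13.3% of the 90 members, against 9.01% of all genes, and those called lower 3.33%, against 8.8% of all genes. Called means an adjusted p under 0.05 in limma. In both directions together 15 of 90 members were called (16.7%), close to the 17.8% of all genes. At a fold of at least 1.5, 8 members were called higher (8.89%, all genes 3.96%) and 2 lower (2.22%, all genes 3.17%), or 1 lower without vehicle replicate 1. The median log2 difference was 0.04 over the members and 0.01 over all genes. By role, 7 of 35 receptors, 2 of 3 decoy receptors, 2 of 43 ligands and 1 of 5 TNF-induced genes were higher, and 2 ligands and 1 TNF-induced gene were lower. Dim genes were 15 of the 43 ligands and 7 of the 35 receptors, and the part of level in this split was not tested. In a piece of ventricle, a change in the number of cells of a type and a change in RNA per cell cannot be told apart.

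Tnfrsf12a, also known as Fn14 and the receptor of the ligand TWEAK, had the largest difference among the members. Its log2 level, as the lowest, median and highest array, was 10.93, 11.28 and 11.93 in treated dTGR, 11.10, 11.73 and 13.24 in vehicle dTGR and 9.53, 9.96 and 10.14 in Sprague Dawley rats. Every transgenic array, treated or not, lay above every Sprague Dawley array. The log2 difference of vehicle dTGR minus Sprague Dawley was 1.91 ± 0.19 (SE, adjusted p = 1.23e-08), a 3.75-fold higher level. Its ligand Tnfsf12 was not called, with a log2 difference of 0.01 (adjusted p = 0.985, 95% confidence interval -0.23 to 0.24). Vehicle and Sprague Dawley arrays did not overlap for 3 of the higher members, Tnfrsf12a, Il17ra and Il4r (all genes 1.55%), and for 1 of the lower members, Tnfaip8 (all genes 1.67%).

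Tnfrsf1a, TNF receptor 1 and the main receptor through which TNF signals in most tissues, had log2 levels of 12.17, 12.36 and 12.55 in treated dTGR, 11.96, 12.90 and 13.55 in vehicle dTGR and 11.83, 11.99 and 12.09 in Sprague Dawley rats (lowest, median, highest). Of the vehicle arrays, 7 of 8 lay above all Sprague Dawley arrays, and replicate 7 lay among them. The log2 difference was 0.82 ± 0.13 (adjusted p = 1.41e-05). The other TNF receptor of this ligand, Tnfrsf1b, gave -0.01 (adjusted p = 0.973, 95% confidence interval -0.20 to 0.18), and Tnf itself gave -0.21 (adjusted p = 0.58, 95% confidence interval -0.64 to 0.21).

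Il17ra, the chain shared by receptors of the interleukin-17 family, and Il4r, the alpha chain of the receptors for interleukins 4 and 13, both rose. Il17ra had log2 levels of 9.01, 9.33 and 10.11 in treated dTGR, 9.31, 9.81 and 10.41 in vehicle dTGR and 8.75, 9.11 and 9.25 in Sprague Dawley rats. Its log2 difference was 0.73 ± 0.15 (adjusted p = 0.000393). Il4r had log2 levels of 11.16, 11.38 and 11.59 in treated dTGR, 11.25, 11.51 and 12.07 in vehicle dTGR and 10.81, 10.92 and 11.18 in Sprague Dawley rats. Its log2 difference was 0.62 ± 0.09 (adjusted p = 3.7e-06). For both genes the vehicle arrays lay above all Sprague Dawley arrays. Tnfrsf21, known as death receptor 6, rose by 0.48 ± 0.11 (adjusted p = 0.00105) and Tnfrsf26 by 0.43 ± 0.11 (adjusted p = 0.00366), both above the Sprague Dawley mean on 8 of 8 vehicle arrays.

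Il17rd, an interleukin-17 receptor family member that also restrains fibroblast growth factor signalling, was called at the edge of the threshold, with a log2 difference of 0.60 ± 0.21 (adjusted p = 0.0477). That call was lost when any of several arrays was left out (Sprague Dawley 1, 2, 4, 5 and 8, vehicle 1, 2, 3, 5, 6 and 8, treated 3, 6, 7, 8 and 12), with an adjusted p between 0.0511 and 0.124. The remaining 28 receptors were not called, and the nearest was Il10ra, the ligand-binding chain of the interleukin-10 receptor (log2 difference 0.38, adjusted p = 0.0696). Il10rb, its partner chain, gave -0.08 (adjusted p = 0.491) and Il7r gave -0.13 (adjusted p = 0.796).

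**Figure D1:**
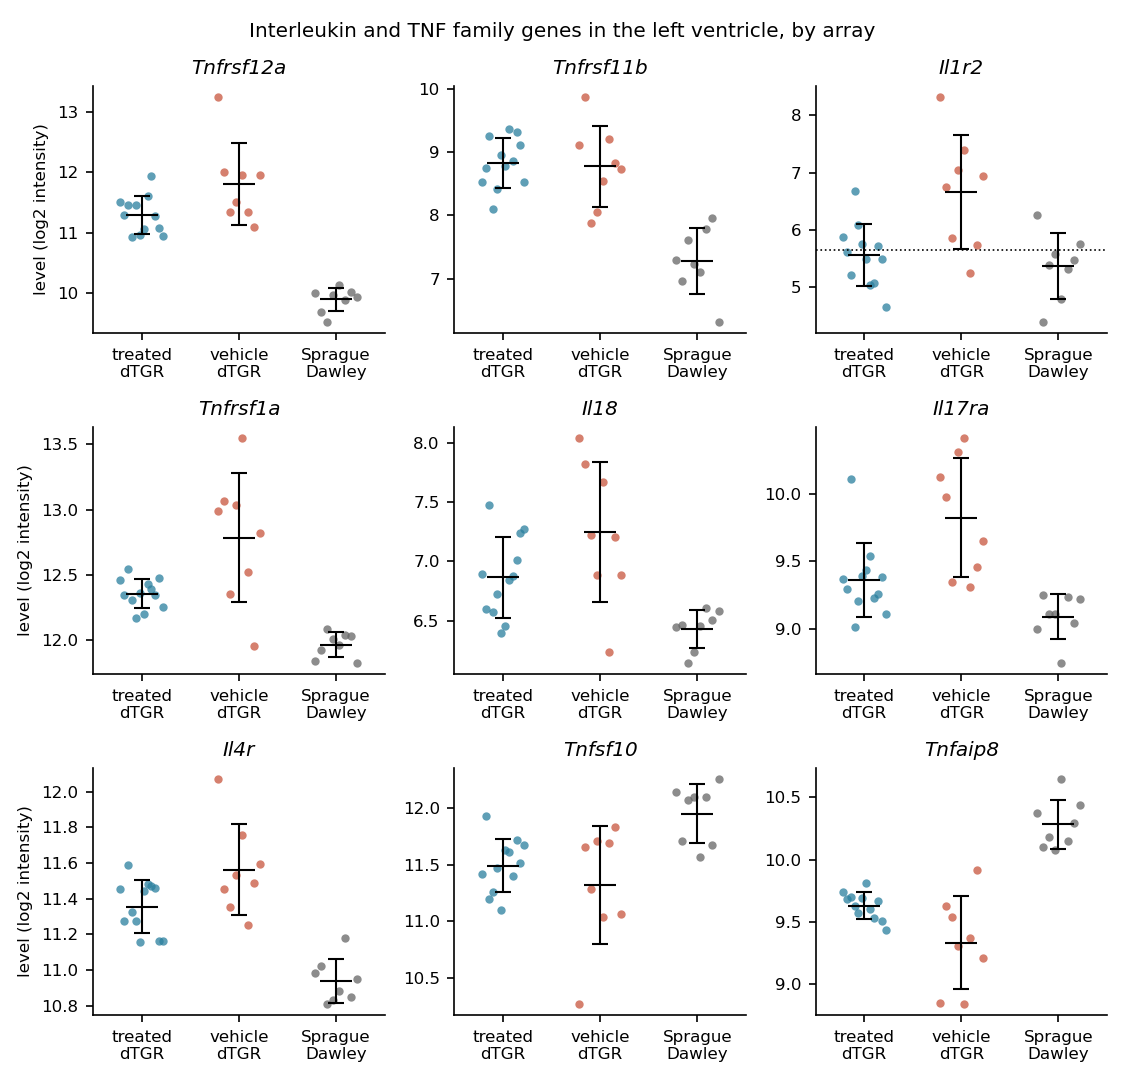
Log2 intensity of 9 members on each array, in treated dTGR (12 arrays), vehicle dTGR (8) and Sprague Dawley rats (8). Points are arrays, horizontal bars means and whiskers 1 standard deviation, and the dotted line for Il1r2 is the dim level of 5.65. Tnfrsf12a lies between 9.53 and 10.14 in Sprague Dawley rats and at 10.93 or above in both transgenic groups.

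The decoy receptors Tnfrsf11b and Il1r2 rose as well. Tnfrsf11b, or osteoprotegerin, is a soluble decoy for the ligands RANKL (Tnfsf11) and TRAIL (Tnfsf10). It had log2 levels of 8.10, 8.82 and 9.37 in treated dTGR, 7.88, 8.78 and 9.86 in vehicle dTGR and 6.32, 7.27 and 7.96 in Sprague Dawley rats. All vehicle arrays were above the Sprague Dawley mean, and the lowest of them lay under the highest Sprague Dawley array. The log2 difference was 1.49 ± 0.23 (adjusted p = 1.75e-05), a 2.81-fold higher level. Its ligand Tnfsf11 was dim, with a difference of 0.04 (adjusted p = 0.955).

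Il1r2 binds interleukin 1 without signalling and is known from neutrophils and macrophages. Its log2 levels were 4.66, 5.56 and 6.69 in treated dTGR, 5.25, 6.84 and 8.31 in vehicle dTGR and 4.40, 5.44 and 6.27 in Sprague Dawley rats. The mean was 5.56 in treated dTGR, 6.66 in vehicle dTGR and 5.37 in Sprague Dawley rats, so only vehicle dTGR had a mean above the dim level. The difference of vehicle dTGR minus Sprague Dawley was 1.28 ± 0.33 (adjusted p = 0.00487), with 7 of 8 vehicle arrays above the Sprague Dawley mean. With the Sprague Dawley arrays raised to the dim level, the fold was at least 1.89 higher. The third decoy, Il13ra2, which takes up interleukin 13, gave 0.21 (adjusted p = 0.518).

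Of 11 neutrophil markers listed, 10 were measured, and S100a8 and Camp were dim. In vehicle against Sprague Dawley hearts 2 of the 10 were called higher (20%, all genes 9.01%), limma called 0 lower (all genes 8.8%), also 0 at an unadjusted p under 0.05, and the other 8 were not called. The higher markers were Lcn2 (2.58 ± 0.36 on the log2 scale) and Mmp8 (1.00 ± 0.33), and the call of Mmp8 was lost without Sprague Dawley replicate 3 or 4 or vehicle replicate 1, 2, 4, 5 or 8, with adjusted p-values between 0.0519 and 0.0871. The summed log2 level of the list ranged over 10.94 to 11.43 in treated dTGR, 11.24 to 13.98 in vehicle dTGR and 9.64 to 11.20 in Sprague Dawley rats. Lcn2, which cells other than neutrophils also make, carried most of that sum on the transgenic arrays, with 72.4% to 80.2% of it in treated dTGR, 72.8% to 89.4% in vehicle dTGR and 16.6% to 68.5% in Sprague Dawley rats. Without Lcn2 the summed log2 level was 9.03 to 9.55 in treated dTGR, 9.27 to 10.74 in vehicle dTGR and 9.24 to 9.66 in Sprague Dawley rats. Among 10 of 12 monocyte and macrophage markers measured, none dim, 6 were higher in vehicle dTGR (60%, all genes 9.01%), led by C1qb (1.24 ± 0.17), and 1 was lower (10%, all genes 8.8%), which was Adgre1 with the log2 difference -0.63 ± 0.18. The summed log2 level of this list was 14.04 to 15.25 in treated dTGR, 14.27 to 15.36 in vehicle dTGR and 14.02 to 14.70 in Sprague Dawley rats. The part of these cell types in the difference of Il1r2 or of any other member was not tested.

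Among ligands, Il18 and Il34 rose, and Tnfsf10 and Il33 fell. Il18, a cytokine of the interleukin-1 family that inflammasomes activate, had log2 levels of 6.39, 6.86 and 7.48 in treated dTGR, 6.24, 7.22 and 8.04 in vehicle dTGR and 6.14, 6.46 and 6.61 in Sprague Dawley rats. The difference was 0.82 ± 0.20 (adjusted p = 0.0028), with 7 of 8 vehicle arrays above the Sprague Dawley mean, and its soluble antagonist Il18bp gave -0.09 (adjusted p = 0.624). Il34, a ligand of the macrophage receptor Csf1r, rose by 0.38 ± 0.12 (adjusted p = 0.0224). Without Sprague Dawley replicate 4, vehicle replicate 3 or vehicle replicate 8 the adjusted p of Il34 was 0.0635, 0.0518 and 0.0501, in that order.

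Tnfsf10, or TRAIL, a ligand of death receptors, had log2 levels of 11.10, 11.49 and 11.93 in treated dTGR, 10.27, 11.47 and 11.83 in vehicle dTGR and 11.57, 12.08 and 12.25 in Sprague Dawley rats. All 8 vehicle arrays lay under the Sprague Dawley mean, with a difference of -0.63 ± 0.16 (adjusted p = 0.00368). Natural killer cell markers, 6 of 6 measured, held 4 that were lower in vehicle dTGR (66.7%, all genes 8.8%), led by Klrd1 (-1.01 ± 0.21), and their summed log2 level was 10.96 to 11.72 in treated dTGR, 10.46 to 11.51 in vehicle dTGR and 11.13 to 12.20 in Sprague Dawley rats. The part of these cells in the Tnfsf10 difference was not tested. Il33, an alarmin released from damaged cells, had a difference of -0.44 ± 0.15 (adjusted p = 0.0353). Its call was lost without Sprague Dawley replicate 1, 2 or 3 or vehicle replicate 3, 4 or 8, with adjusted p-values between 0.0507 and 0.0992.

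No other ligand was called. Il1a had a difference of 0.22 (adjusted p = 0.745), Il1b -0.23 (0.647), Il10 0.24 (0.515) and Il15 -0.33 (0.151), with the adjusted p of each in parentheses, and the receptor antagonist Il1rn gave 0.00 (0.999). The 95% confidence interval of Il1b was -0.76 to 0.30, so these arrays do not show that it was alike in both groups.

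Of the genes named as TNF-induced, Tnfaip8 fell and Tnfaip1 rose. Tnfaip8, an inhibitor of apoptosis, had log2 levels of 9.43, 9.65 and 9.81 in treated dTGR, 8.84, 9.34 and 9.92 in vehicle dTGR and 10.08, 10.24 and 10.65 in Sprague Dawley rats. Each transgenic array lay under each Sprague Dawley array, and the difference of vehicle dTGR minus Sprague Dawley was -0.95 ± 0.12 (adjusted p = 3.18e-07). Tnfaip1, an adaptor of a ubiquitin ligase, rose by 0.32 ± 0.06 (adjusted p = 0.000343).

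**Figure D2:**
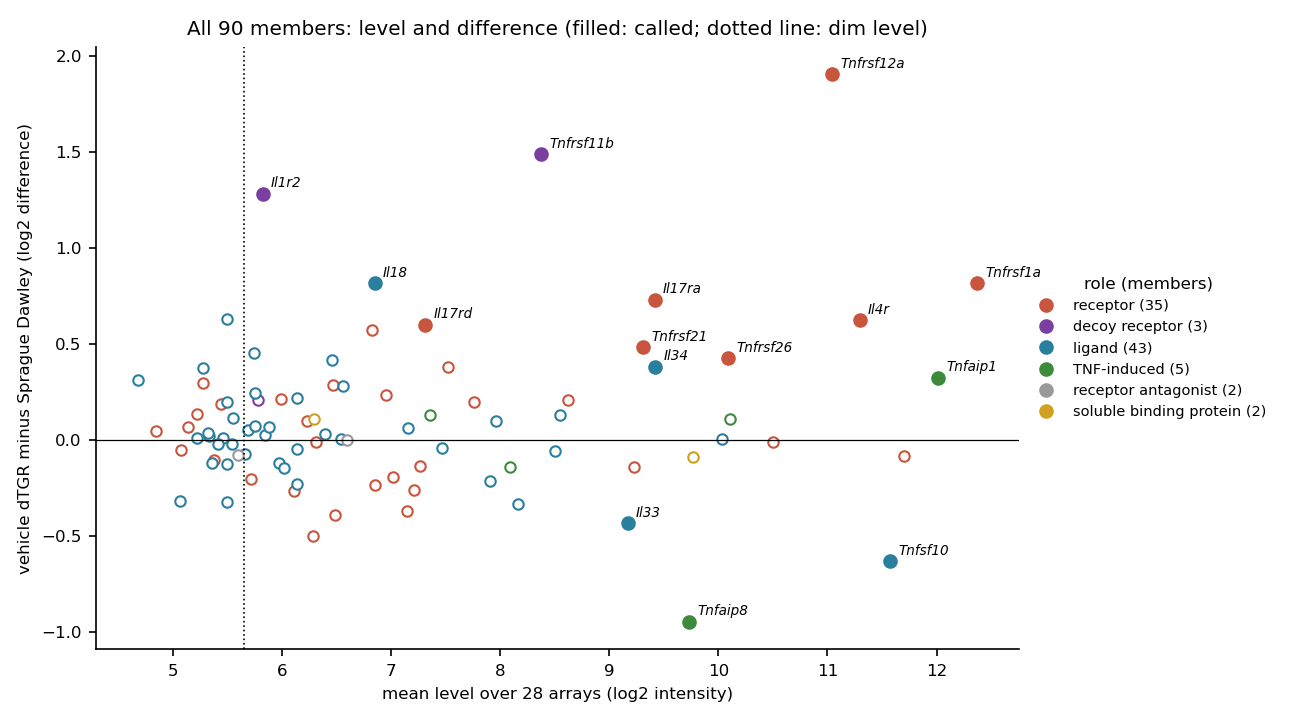
Log2 difference of vehicle dTGR minus Sprague Dawley against the mean log2 intensity over 28 arrays for all 90 members, coloured by role. Filled points were called, the dotted line is the dim level of 5.65, and the 15 called members are named. Called receptors and decoy receptors all lie above 0.

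Under BAY 41-8543, 3 members were lower than under vehicle and none was called higher. This comparison asks what the treatment changed in the transgenic heart. Il1r2, Il17ra and Tnfrsf1a were lower in treated dTGR, and each had been higher in vehicle dTGR than in Sprague Dawley rats. Both comparisons use the same vehicle arrays, so a high vehicle mean enters both. The 3 lower members were 3.33% of the 90, against 3.22% of all genes, and the 0 higher members stood against 3.84% of all genes. At an unadjusted p under 0.05 in limma, 7 members were higher (7.78%, all genes 10.5%) and 10 lower (11.1%, all genes 8.57%). At a fold of at least 1.5, no member was higher (all genes 1.34%) and 1 was lower (1.11%, all genes 1.52%). For every member the arrays of the 2 groups overlapped, as they did for all but 0.0481% of genes on the higher side. The median log2 difference was -0.05 over the members and 0.00 over all genes.

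Il1r2 had the largest difference, -1.10 ± 0.30 on the log2 scale (adjusted p = 0.0212). Of the treated arrays, 11 of 12 lay under the vehicle mean, and the groups overlapped, since vehicle replicates 3, 6 and 7 had levels of 5.86, 5.25 and 5.74. With the treated arrays raised to the dim level the fold was at least 1.81 lower. Without vehicle replicate 1, 4 or 5 the adjusted p was 0.0666, 0.0567 and 0.0621, in that order. Of the 10 neutrophil markers, Mmp8 (-1.18 ± 0.30) and S100a9 (-0.91 ± 0.23) were lower in treated than in vehicle dTGR (20%, all genes 3.22%) and limma called 0 higher (all genes 3.84%), also 0 at an unadjusted p under 0.05. Of the 10 monocyte and macrophage markers, C1qb (-0.76 ± 0.15) and C1qc (-0.78 ± 0.17) were lower (20%) and Adgre1 (0.58 ± 0.16) was higher (10%). The call of Adgre1 was lost without vehicle replicate 4, 5 or 8 (adjusted p of 0.0891, 0.078 and 0.0745). The part of these cell types in the Il1r2 difference was not tested.

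Tnfrsf1a was lower by the log2 difference -0.43 ± 0.12 (adjusted p = 0.0196), with 12 of 12 treated arrays under the vehicle mean. The treated arrays lay close together, with a standard deviation of 0.11, against 0.49 in vehicle dTGR and 0.09 in Sprague Dawley rats. Without vehicle replicate 2, 4 or 5 the adjusted p was 0.0528, 0.059 and 0.0634. Il17ra was lower by the difference -0.46 ± 0.13 (adjusted p = 0.0308), on 11 of 12 treated arrays. Its adjusted p was 0.073, 0.063, 0.0977 and 0.0999 without vehicle replicate 1, 2, 4 or 5, and 0.0542 without treated replicate 4. The count of members called lower was 1, 1, 0 and 0 without vehicle replicate 1, 2, 4 or 5, and 6 without vehicle replicate 6. The share of all genes called in each of those fits was not counted, so these counts cannot be set against it. In a fit to the treated and vehicle groups alone, Tnfrsf1a had an adjusted p of 0.0534 and Il17ra one of 0.0652.

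The other members that differed between vehicle dTGR and Sprague Dawley rats were not called between treatments. Tnfrsf12a had a log2 difference of treated minus vehicle dTGR of -0.51 ± 0.17 (adjusted p = 0.0723, 95% confidence interval -0.87 to -0.16). Its adjusted p was 0.0426, 0.0349 and 0.0184 without vehicle replicate 3, 6 or 7, and 0.0414 without treated replicate 9. Without vehicle replicate 1, the highest array, the difference was -0.31 (adjusted p = 0.193). Il18 gave -0.38 (adjusted p = 0.236), Il4r -0.21 (0.123) and Tnfaip8 0.30 (0.0848), with adjusted p-values in parentheses. Without vehicle replicate 6 the adjusted p was 0.0403 for Il18 and 0.0402 for Il4r. Without vehicle replicate 7 it was 0.00903 for Tnfaip8, and 2 members were called higher, with the share of all genes not counted. Leaving out 1 array at a time gave differences between -0.53 and -0.27 for Il18 (adjusted p up to 0.471), between -0.25 and -0.14 for Il4r (up to 0.329) and between 0.23 and 0.38 for Tnfaip8 (up to 0.236). The smallest of those differences for Il18 and Il4r came without vehicle replicate 1. For Tnfrsf11b the difference was 0.05 ± 0.21 (adjusted p = 0.934), with a 95% confidence interval of -0.38 to 0.49. Tnf, with median log2 levels of 8.05 in treated dTGR, 7.63 in vehicle dTGR and 8.01 in Sprague Dawley rats, gave 0.39 (adjusted p = 0.254).

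The vehicle arrays were uneven over these genes. On the 12 members higher in vehicle dTGR than in Sprague Dawley rats, vehicle replicates 1, 5 and 8 lay above every treated array for 7 members each and replicate 2 for 6. Replicates 3, 6 and 7 did so for 2 members each and replicate 4 for 3. Replicate 6 lay under the treated mean for 7 of the 12, replicate 3 for 6 and replicate 7 for 5. Over the 67 members that were not dim, the median standard deviation was 0.344 in treated dTGR, 0.362 in vehicle dTGR and 0.334 in Sprague Dawley rats. That of vehicle dTGR was above that of Sprague Dawley rats for 44 of the 67. The ratio was 5.22 for Tnfrsf1a, 3.65 for Il18, 3.43 for Tnfrsf12a and 2.64 for Il17ra, but 0.80 for Il34 and 0.55 for Il17rd. The fit took 1 spread per gene for all groups, so its standard errors do not reflect such differences.

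Vehicle replicates 6 and 7 were known from earlier results of these data to lie among the treated arrays, and leaving both out widens the contrast by its own construction. Without them, 6 members were lower in treated than in vehicle dTGR (all genes 6.09%) and 4 were higher (all genes 7.56%). The lower members were then Il1r2 (-1.49), Tnfrsf12a (-0.71), Tnfrsf1a (-0.61), Il17ra (-0.61), Il18 (-0.56) and Il4r (-0.27). The higher ones were Tnf (0.65), Tnfrsf13c (0.64), Tnfaip8 (0.40) and Tnfaip2 (0.38), all as log2 differences.

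**Figure D3:**
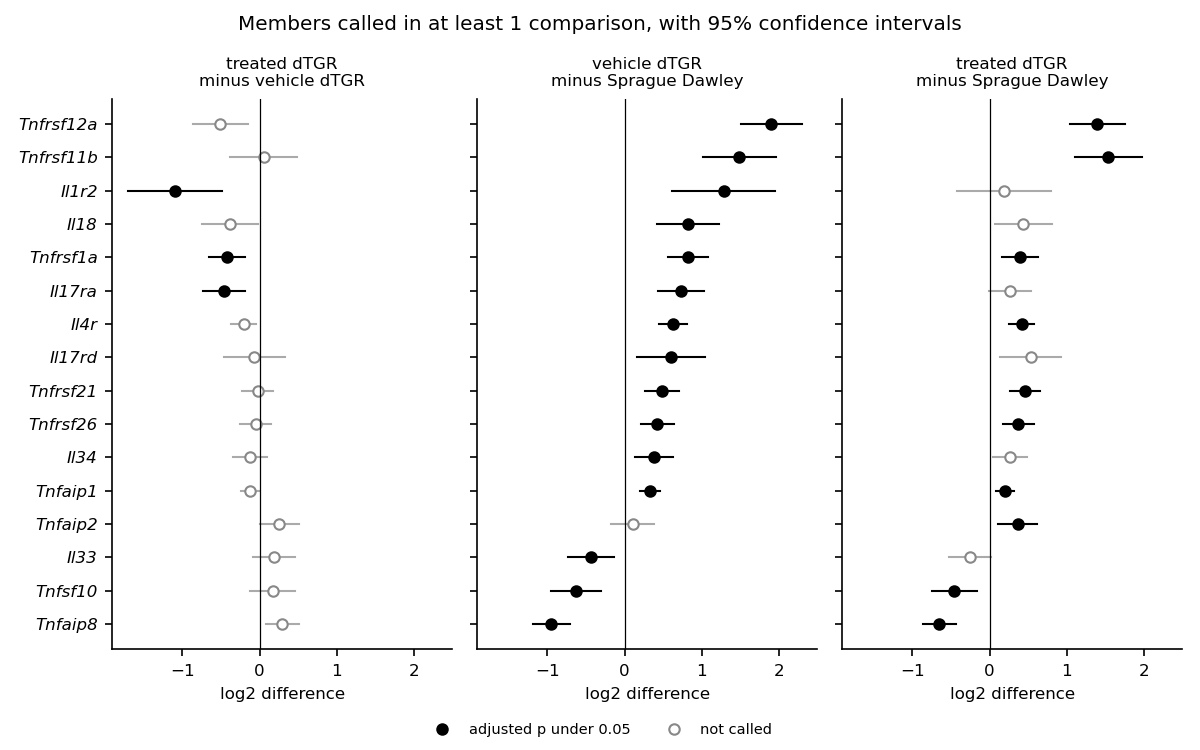
Log2 differences with 95% confidence intervals for the 16 members called in at least 1 comparison. The panels show treated minus vehicle dTGR, vehicle dTGR minus Sprague Dawley and treated dTGR minus Sprague Dawley, filled points were called at an adjusted p under 0.05, and pairs of panels share arrays. Tnfrsf11b lies at 0.05 between treatments, 1.49 in vehicle and 1.54 in treated dTGR against Sprague Dawley rats.

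Treated dTGR still differed from Sprague Dawley rats in several receptors of the TNF family. Of the members, 8 were higher (8.89%, all genes 7.06%) and 2 were lower (2.22%, all genes 5.81%). At a fold of at least 1.5, Tnfrsf11b and Tnfrsf12a remained as higher members and Tnfaip8 as a lower one (all genes 2.63% higher and 1.54% lower). The median log2 difference was 0.05 over the members and 0.01 over all genes.

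Tnfrsf11b had a log2 difference of treated dTGR minus Sprague Dawley of 1.54 ± 0.21 (adjusted p = 3.24e-06), a 2.91-fold higher level, and Tnfrsf12a one of 1.39 ± 0.17 (adjusted p = 6.31e-07), a 2.63-fold higher level. Tnfrsf21 (0.46 ± 0.10, adjusted p = 0.00102) and Tnfrsf1a (0.39 ± 0.12, adjusted p = 0.0201) were higher too. For these 4 genes no treated array overlapped a Sprague Dawley array (all genes 1.43%). Il4r was higher by 0.42 ± 0.08 (adjusted p = 0.000378) and Tnfrsf26 by 0.37 ± 0.10 (adjusted p = 0.00739), each on 12 of 12 treated arrays against the Sprague Dawley mean.

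Il1r2 and Il17ra were not called against Sprague Dawley rats, with differences of 0.19 (adjusted p = 0.79, 95% confidence interval -0.42 to 0.80) and 0.27 (adjusted p = 0.217). Il18 gave 0.44 (adjusted p = 0.119), Il17rd 0.53 (0.069) and Il34 0.26 (0.122). In a limma fit to treated dTGR and Sprague Dawley rats alone, the adjusted p of Il18 was 0.0482. With 1 array left out of the main fit it lay between 0.0722 and 0.212. Without Sprague Dawley replicate 3 or 7 or treated replicate 10 the adjusted p of Il17rd was 0.0198, 0.0471 and 0.0429, and without Sprague Dawley replicate 5 that of Il34 was 0.0271. Over all arrays left out in turn, the adjusted p reached 0.188 for Il17rd, with a difference of 0.41 to 0.66, and 0.309 for Il34, with a difference of 0.19 to 0.34. Tnfaip8 was lower by the difference -0.65 ± 0.11 (adjusted p = 3.53e-05), with no overlap of the arrays (all genes 0.941%). Tnfsf10 was lower by -0.46 ± 0.14 (adjusted p = 0.0295), a call lost without Sprague Dawley replicate 1, 3, 4, 6 or 8 or treated replicate 6, with adjusted p-values between 0.0526 and 0.0699.

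Of the TNF-induced genes, Tnfaip1 was higher by 0.20 ± 0.06 (adjusted p = 0.0214), and without Sprague Dawley replicate 6 or 8 the adjusted p was 0.0512 and 0.0647. Tnfaip2 was higher by 0.36 ± 0.12 at the edge of the threshold (adjusted p = 0.0496). Its adjusted p lay between 0.052 and 0.103 when any of several arrays was left out (Sprague Dawley 1, 3, 6, 7 and 8, vehicle 1, 2, 3 and 8, treated 2, 3, 4, 6, 7, 8, 10 and 11).

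**Figure D4:**
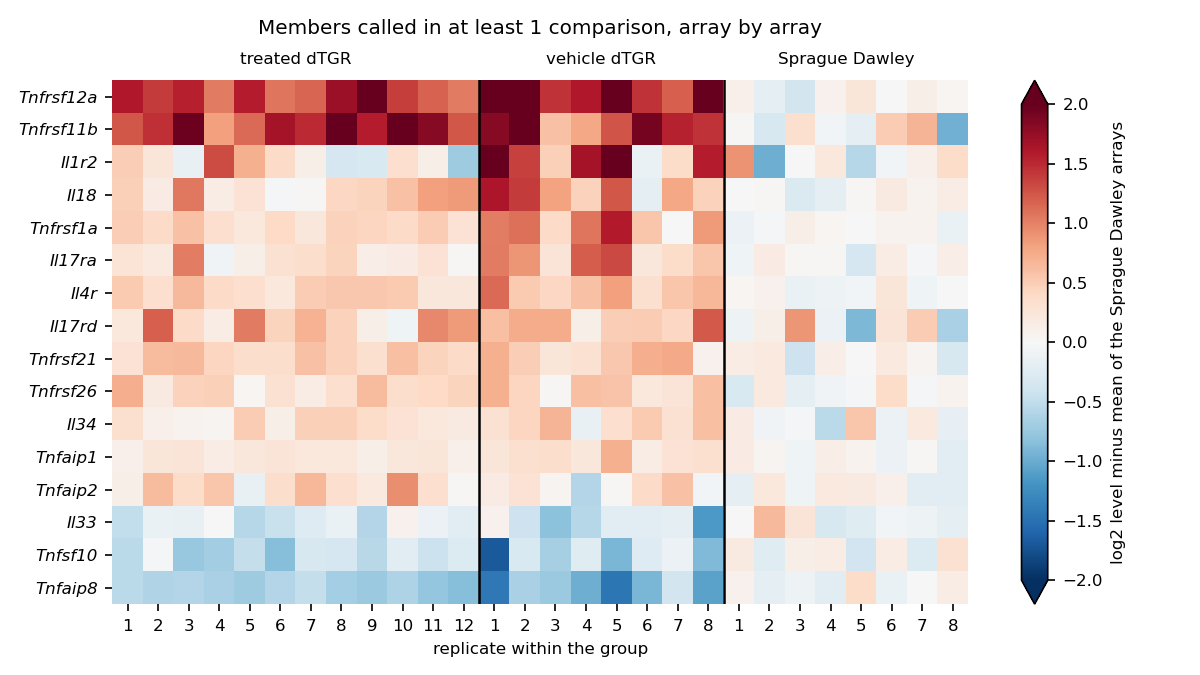
Log2 level of the 16 members called in at least 1 comparison on each array, minus the mean of the Sprague Dawley arrays. Columns are arrays in the order treated dTGR, vehicle dTGR and Sprague Dawley, numbered within the group, and the colour scale ends at 2 log2 units to either side. Rows from Tnfrsf12a to Il4r are mostly red in vehicle dTGR, while replicates 3, 6 and 7 are paler than the other vehicle arrays for Il1r2, Tnfrsf1a and Il17ra.

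The signal carriers behind these receptors were followed in a list of 70 genes (adaptors, kinases, inflammasome parts, NF-kappaB subunits and their inhibitors), of which 57 were measured and none was dim. In vehicle dTGR, 12 of the 57 were higher than in Sprague Dawley rats (21.1%, all genes 9.01%) and 3 were lower (5.26%, all genes 8.8%). The largest rise was that of Irak2, a signal carrier of the interleukin-1 and Toll-like receptors (1.02 ± 0.17, adjusted p = 4.57e-05). Next came Nfkbia, the inhibitor that holds NF-kappaB in the cytoplasm (1.01 ± 0.22, adjusted p = 0.00103). Myd88, the adaptor of those receptors (0.94 ± 0.14, adjusted p = 1.13e-05), and Bcl3, a nuclear partner of NF-kappaB subunits (0.87 ± 0.19, adjusted p = 0.000963), followed. The lower genes were Pycard (-0.52), Tab1 (-0.33) and Ripk2 (-0.24, adjusted p = 0.048), and the adjusted p of Ripk2 ran up to 0.123 with 1 array left out. With a fit to those 2 groups alone, 7 were called higher, and the share of all genes called in that fit was not counted.

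In treated against vehicle dTGR, 6 of the 57 were lower (10.5%, all genes 3.22%) and 3 higher (5.26%, all genes 3.84%). Nfkbia (-0.94 ± 0.20, adjusted p = 0.00403), the kinase Map3k8 (-0.76 ± 0.17, adjusted p = 0.00592) and Myd88 (-0.69 ± 0.13, adjusted p = 0.00139) led the lower genes. The higher genes were Birc3 (0.60), an inhibitor of apoptosis in the TNF receptor complex, Pycard (0.49), the inflammasome adaptor, and Tab1 (0.34). Without vehicle replicate 4 or 5 the adjusted p of Pycard was 0.0685 and 0.0553. Treated dTGR against Sprague Dawley rats gave 8 higher genes (14%, all genes 7.06%), among them Irak2 (0.55 ± 0.16, adjusted p = 0.0171, or 0.0534 without Sprague Dawley replicate 2). Nlrp3, an inflammasome sensor, was at the edge of the threshold (0.62 ± 0.21, adjusted p = 0.0455). Its log2 level was 5.41 on Sprague Dawley replicate 1 and 6.93 to 7.34 on the other Sprague Dawley arrays, and without that replicate the difference was 0.40 (adjusted p = 0.141). In that comparison limma called 0 genes of the list lower (all genes 5.81%), while 3 were lower at an unadjusted p under 0.05.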

How the data were processed

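Left ventricles of 28 rats were profiled on 1-colour whole transcript arrays from 250 ng of RNA, per the labels' protocols. For each probe the authors deposited a normalized intensity on every array, made with RMA per the submitters' processing notes (version not given there). RMA usually ends on the log2 scale, whereas the deposited intensities run from 1.90 to 162208 and are linear. How they were scaled is not stated, so log2 of each value was used throughout.

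Of 36685 probes, 14824 carried 1 gene symbol, which gave 14557 genes by the brightest probe. Groups were compared with limma 3.58.1 under R 4.3.3 (lmFit, eBayes with an intensity trend) in 1 fit with a mean per group, two-sided, without a filter on level. P-values were adjusted by Benjamini-Hochberg over all 14557 genes, and a gene was called under 0.05. Differences are the group named first minus the other, on the log2 scale, with their standard error (SE). Where a group mean was dim, its arrays were raised to 5.65 and the fold is at least that given. The fit was tested on simulated normal values with 1 spread per gene for all groups, unlike the uneven spread of some members here. Over the 3 comparisons it called 50% to 56% of 1.5-fold changes and 78% to 88% of 2-fold changes. The number of arrays limits the precision, and the p-values reflect only the spread among the labelled samples. No batch or pairing is given in the labels.

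The members and lists were chosen with earlier results of these data known. Full statistics went to called members and to a fixed set of cytokines and receptors, called or not. Of that set, Il1r1, Il1rl1, Il2rg, Tnfaip3 and Tnfaip6 were not analysed, as no probe carried their symbol alone. Genes outside the members were named from the lists, by the largest called differences or to complete a small count. Alternatives covered the filter on dim genes, the choice of probe, normalization, the variance prior, array weights, the groups in the fit, a fold of at least 1.5 and leaving out arrays. Gene IDs of all 90 members matched the RefSeq table. Leaving out each array for the list genes named in the text, and the neutrophil sum without its brightest marker, were chosen after seeing the data.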

Additional observations from a re-analysis of the deposited data

Results flagged for a closer look

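In the groups of 8 arrays, the levels of 26 named members were searched for an array far from the rest of its group, by the gap to the nearest array over the range of the group (limit 0.526). Of 52 groups 6 were marked, and chance marks about 1 in 20. The treated group, with 12 arrays, was not searched. In vehicle dTGR, replicate 1 had a Tnfrsf12a log2 level of 13.24, against 11.9993 on the nearest array, and a Tnfrsf1b level of 10.96, against 10.59. In the same group, replicate 4 had an Il34 level of 9.06, under the nearest at 9.50, and replicate 5 a Tnfaip1 level of 12.55, against 12.20. In Sprague Dawley rats, replicate 2 had an Il1a level of 7.27, against 6.38, and replicate 6 a Tnfrsf1b level of 10.85, against 10.59.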

How the results depend on the processing

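No paired analysis was possible because the labels give animal numbers that differ between the groups and no pairs. Over 38 settings, 19 of the 28 called differences of members kept their call in every setting, 9 lost it in at least 1 and 0 reversed. Of 50 named differences that were not called, 9 were called in at least 1 setting. Neither scaling moved the median of all genes by as much as 0.1. Counts that changed by over 1.5 times were the following, and the cause was not tested beyond what each setting removes. For most settings the share of all genes called was not counted, so those counts cannot be set against it. With 1.5-fold as a further condition, members lower in treated than in vehicle dTGR numbered 1, and against Sprague Dawley rats treated dTGR had 2 higher and 1 lower. With only the 2 groups compared, 1 member was lower in treated than in vehicle dTGR, 7 genes of the signal list were higher in vehicle dTGR than in Sprague Dawley rats, and 1 was lower in treated dTGR than in Sprague Dawley rats. In that fit Il17rd, Il33 and Il34 lost their calls against Sprague Dawley rats in vehicle dTGR (adjusted p of 0.0799, 0.0882 and 0.072). A filter at the median of all probes removed Il1r2, which left 0 members lower by 1.5-fold in treated than in vehicle dTGR, and it gave 1 signal gene lower in treated dTGR than in Sprague Dawley rats. Without the intensity trend, 1 member was lower in treated dTGR than in Sprague Dawley rats. Without vehicle replicates 6 and 7, vehicle dTGR had 5 members lower than Sprague Dawley rats (all genes 10.2%, against 8.8% in the main fit). Treated against vehicle dTGR then gave 4 members higher (all genes 7.56%), and 6 members and 10 signal genes lower (all genes 6.09%). By 1.5-fold, 2 members were higher and 4 lower, and the share of all genes at that fold was not counted in this fit. Leaving out 1 array at a time, treated against vehicle dTGR gave 0 to 2 members higher, 0 to 6 lower and 0 to 2 lower by 1.5-fold. Vehicle dTGR against Sprague Dawley rats gave 1 to 2 members lower by 1.5-fold. Treated dTGR against Sprague Dawley rats gave 1 to 2 members lower and 0 to 1 signal genes lower. Members whose levels lie near the dim level have no measured background, which limits their folds.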
